A study of Mus musculus with 36 samples.

Results

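Py230 primary tumors at 6 w post-inoculation (p.i.) were compared with mammary glands of the same strain that had received Matrigel alone. The comparison held 6 of the 36 RNA-seq samples of the series, chosen by their labels: 3 Py230 tumors and 3 Matrigel glands, all from C57BL/6 mice and all collected 6 w p.i. Py230 is a mammary tumor cell line that was derived from spontaneous tumors of C57BL/6 mice carrying the MMTV-PyMT transgene, in which a viral oncogene is driven in the mammary epithelium. The cells were suspended in PBS with Matrigel, a basement membrane extract, and were injected through the teat canal into the ducts of the third mammary gland of lactating females shortly after weaning, so that tumors grew in the ducts of immunocompetent hosts. The control glands were labelled as inoculated with Matrigel only. Py230 is 1 cell line, and the tumor samples were whole primary tumors, so each library held tumor cells together with the host cells of the tumor. The age of the mice at collection is not in the labels. The study calls the tumor samples of a time independent, but neither the labels nor the methods say whether the tumors, or the glands, came from separate mice. P-values therefore measured a spread between samples of a group that may be technical. This spread was estimated for each gene over all 36 samples of the series, not over these 6 alone. The remaining samples were Py230 tumors and C57BL/6 Matrigel glands of earlier times (1 and 3 w p.i.), and 4T1 tumors with Matrigel glands of BALB/c mice, which were collected at the same 3 times.

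The mammary gland consists of ducts with an inner layer of luminal epithelium, which makes milk, and an outer layer of contractile myoepithelium, and these ducts lie in a pad of adipose tissue with fibroblasts, vessels, nerves, immune cells and antibody-secreting plasma cells. After weaning the milk-producing epithelium is removed and the fat pad refills with adipocytes, a process called involution. A tumor that starts in the ducts and breaks through their wall takes the place of this fat-rich tissue, so that a tumor sample and a gland sample differ in the cells they hold as well as in what those cells express. In whole tissue, fewer cells of a type and less RNA per cell cannot be told apart, and this holds for each group of genes below.

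The deposited values were standardized scores: in each library the 21650 genes average 0 with an SD of 1. Differences are given as the mean score of the tumors minus the mean score of the glands, with the standard error (SE) of limma's linear model over all 36 libraries and a Benjamini-Hochberg adjusted p-value that takes in all genes. A gene was called when this adjusted p was under 0.05. The depth of the libraries is unknown from scores. Correlations across genes ranged from 0.989 to 0.992 among the tumors, from 0.990 to 0.992 among the glands and from 0.922 to 0.960 between tumors and glands. Some libraries stood apart in genes of other cell types. The mean score of 15 skeletal muscle genes was −0.72 in tumor 1, against 0.92 and 0.70 in tumors 2 and 3 and 1.32 to 1.57 in the glands. Of 19 adipocyte genes the mean score was 1.04 in tumor 3, against 0.17 and 0.37 in tumors 1 and 2. Gland 3 had a mean score of 0.59 over 8 keratinocyte genes, where the other 5 libraries lay between −1.24 and −1.09. The 3 glands were close to each other, and apart from all other libraries, in antibody variable genes, as given with those genes.

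At 6 w p.i., 10296 of 21650 genes (47.6%) were called between tumors and glands. Of these, 6238 were higher in the tumors (28.8% of all genes) and 4058 were lower (18.7%). At an unadjusted p under 0.05 there were 11644 genes. The 3 tumor scores lay apart from the 3 gland scores, with no overlap, in 13867 genes (64.1%). The median difference over all genes was 0.03, and the largest difference had a size of 2.56. A difference of more than 1 score unit was seen in 390 called genes, of which 310 were lower and 80 higher in the tumors. So the tumors had more genes that were higher, while large differences were mostly lower in the tumors. Of the called genes, 60.6% were higher in the tumors, and this share was 30.9% after each library was centred on 8 housekeeping genes, which moved the median of all genes to −0.07. The count was 8655 without tumor 1, 9648 without tumor 3 and 8893 without gland 3.

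Genes with the largest rise came from several functions, and none of them was an immunoglobulin or adipocyte gene. Nptx1, a secreted protein of the pentraxin family known from synapses, scored 1.23, 1.34 and 0.89 in the tumors and −1.30, −1.44 and −1.41 in the glands. Its difference of 2.54 ± 0.20 (SE, adjusted p = 1.69e-09) was the highest of all genes that met the naming rule. Igfbp2, which encodes a binding protein of insulin-like growth factors, scored 2.31, 2.26 and 2.13 in the tumors and 0.53, 0.09 and 0.34 in the glands (difference 1.92 ± 0.25, adjusted p = 1.72e-06). In both genes the groups were far apart and the 3 tumors close to each other. Clca1, a secreted protein linked to mucus and chloride transport, scored 1.02, 1.13 and 0.83 in the tumors and −0.84, −0.64 and −1.17 in the glands (difference 1.88 ± 0.36, adjusted p = 0.000159), and Clca2, of the same gene family, also rose (1.40 ± 0.18, adjusted p = 1.01e-06). Arc, an immediate early gene best known from neurons, scored 0.95, 1.26 and 0.83 in the tumors and −0.68, −0.86 and −0.74 in the glands. The difference of Arc was 1.77 ± 0.17 (adjusted p = 2.37e-08).

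Matrix and enzyme genes made up much of the remaining 12 highest. Emid1, a secreted protein with an EMI domain and a collagen-like part, rose by 1.76 ± 0.14 (adjusted p = 1.84e-09) and Capn6, a member of the calpain family, by 1.67 ± 0.13 (adjusted p = 1.59e-09). Col11a1, a minor fibrillar collagen, scored 1.87, 1.82 and 1.77 in the tumors and 0.40, 0.01 and 0.26 in the glands (difference 1.60 ± 0.15, adjusted p = 1.53e-08). Col9a1, a chain of a collagen best known from cartilage, scored 1.58, 1.63 and 1.41 in the tumors and 0.24, 0.04 and 0.06 in the glands (difference 1.42 ± 0.13, adjusted p = 1.53e-08). Arsi, a sulfatase, rose by 1.55 ± 0.16 (adjusted p = 7.53e-08). For none of these genes did a tumor overlap a gland. Il1b and Car9, the other 2 of the 12 highest, are described with the cytokine and hypoxia genes. Further high differences among genes picked after their values were seen were those of Lrp8, a receptor for reelin and apolipoprotein E (1.31 ± 0.14), of Cyp24a1, which breaks down vitamin D (1.28 ± 0.23), and of Etv4, a transcription factor of the ETS family (1.22 ± 0.14).

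**Figure D1:**
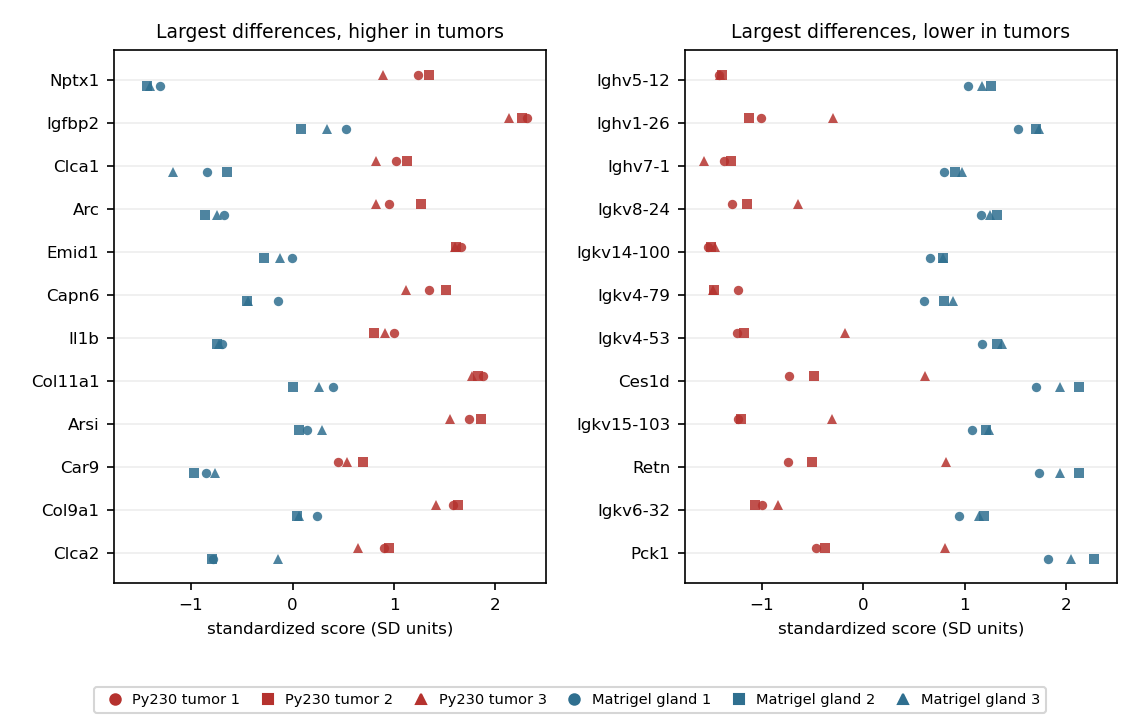
Standardized score (x axis, SD units of each library) of the 12 genes with the highest and the 12 with the lowest difference at 6 w p.i. by the naming rule, with 1 point for each of 3 Py230 tumors (red) and 3 C57BL/6 Matrigel glands (blue) and no error bars. In all 24 genes the tumor points lie apart from the gland points, and in Ces1d, Retn and Pck1 tumor 3 lies closest to the glands.

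Genes of cell division were higher in every tumor. Of the 20 listed genes of mitosis, 20 rose and 0 fell, with a median difference of 0.82, and the mean score of the list was 0.84, 0.85 and 0.70 in the tumors and 0.01, −0.05 and 0.02 in the glands. Birc5, which encodes survivin, a subunit of the complex that corrects chromosome attachment, scored 0.84, 0.81 and 0.63 in the tumors and −0.30, −0.27 and −0.25 in the glands (difference 1.03 ± 0.19, adjusted p = 9.56e-05). Cdc20, the activator of the anaphase-promoting complex, scored 0.94, 0.99 and 0.78 in the tumors and −0.03, −0.11 and −0.04 in the glands (difference 0.97 ± 0.19, adjusted p = 0.000141). Both groups were tight in these genes, and tumor 3 was the lowest tumor in each. Mki67, the gene of the proliferation marker Ki67, rose by 0.67 ± 0.20 (adjusted p = 0.00644), Cdk1, the kinase that drives entry into mitosis, by 0.92 ± 0.19 (adjusted p = 0.000288), and Foxm1, a transcription factor of mitotic genes, by 0.71 ± 0.15 (adjusted p = 0.000537).

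The 20 listed genes of DNA replication rose as well, 20 of 20, with a median difference of 0.56. Rrm2, the subunit of ribonucleotide reductase that sets the supply of DNA precursors, scored 1.04, 1.04 and 0.91 in the tumors and −0.11, 0.05 and −0.04 in the glands (difference 1.03 ± 0.18, adjusted p = 6.22e-05). Ccne2, a cyclin of the start of S phase, scored 0.43, 0.47 and 0.29 in the tumors and −0.34, −0.36 and −0.34 in the glands, and its difference of 0.74 ± 0.09 (adjusted p = 4.58e-07) had the smallest p of the list. The helicase subunit Mcm2 rose by 0.63 ± 0.11 (adjusted p = 3.46e-05) and Pcna, the clamp that holds DNA polymerase, by 0.45 ± 0.08 (adjusted p = 6.73e-05). Among the hallmarks of the deposited membership table, 157 of 191 measured E2F target genes rose and 5 fell, 146 of 189 G2M checkpoint genes rose and 8 fell, and 144 of 180 genes of the first MYC target hallmark rose and 4 fell. These hallmarks share genes with each other and with the lists above.

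The promoters of the mitosis genes are shown because these genes rose together and many promoters of this class carry known motifs: TTTGAA is the core of the cell cycle homology region, CCAAT is bound by NF-Y, and TTCGCGC and TTTGGCGC are forms of the E2F site. In RefSeq windows of 300 bases (250 before and 50 after the start, GRCm38.p6), TTTGAA was found on either strand in 17.9% of 32851 windows and in 11 of the 15 mitosis genes that had a window. CCAAT was in 37.4% of all windows and in 13 of these 15 genes. In DNA replication genes TTTGAA was in 2 of 17 and CCAAT in 11 of 17. TTTGGCGC, in 0.514% of all windows, was in 5 of these 17 genes and in 0 of the 15 mitosis genes, and TTCGCGC, in 1.59% of all windows, was in 3 of 17 and 1 of 15. In 13 adipocyte genes TTTGAA was in 2, CCAAT in 4 and the E2F forms in 0. These matches are letters in a window and no measure of binding, and matches can overlap, as do a pair of CCAAT on opposite strands in Ube2c. The 250 bases before the start of 4 mitosis genes follow, 5′ to 3′ on the strand of the gene. TTTGAA and CCAAT or their reverse complements are in capitals. These 4 genes were picked for a small p from a part of the mitosis genes that had a window. Mitosis genes outside this choice may have a smaller p. Aurka, the mitotic kinase Aurora A, lies on the minus strand at chr2:172370571-172370820, with 2 CCAAT, and the TTTGAA of its window does not lie within these 250 bases. Birc5 lies on the plus strand at chr11:117848987-117849236 and has no match in this stretch. Ube2c, the ubiquitin-conjugating enzyme of the anaphase-promoting complex, lies on the plus strand at chr2:164769679-164769928 with 1 TTTGAA and 6 CCAAT. Cdc20 lies on the minus strand at chr4:118437344-118437593 with 1 TTTGAA and 2 CCAAT.
Aurka: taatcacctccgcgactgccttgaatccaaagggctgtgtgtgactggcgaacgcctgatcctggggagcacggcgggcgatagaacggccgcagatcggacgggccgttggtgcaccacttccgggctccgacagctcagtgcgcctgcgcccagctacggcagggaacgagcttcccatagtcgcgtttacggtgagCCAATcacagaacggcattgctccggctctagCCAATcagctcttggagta
Birc5: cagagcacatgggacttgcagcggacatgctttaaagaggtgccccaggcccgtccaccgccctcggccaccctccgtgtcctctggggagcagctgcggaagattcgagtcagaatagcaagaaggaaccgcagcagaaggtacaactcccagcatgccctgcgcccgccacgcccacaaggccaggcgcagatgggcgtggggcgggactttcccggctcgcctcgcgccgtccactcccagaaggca
Ube2c: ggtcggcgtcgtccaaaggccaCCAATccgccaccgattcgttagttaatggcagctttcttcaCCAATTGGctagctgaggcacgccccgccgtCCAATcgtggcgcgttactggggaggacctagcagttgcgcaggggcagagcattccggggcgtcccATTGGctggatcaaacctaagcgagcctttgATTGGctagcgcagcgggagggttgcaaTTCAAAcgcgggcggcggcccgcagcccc
Cdc20: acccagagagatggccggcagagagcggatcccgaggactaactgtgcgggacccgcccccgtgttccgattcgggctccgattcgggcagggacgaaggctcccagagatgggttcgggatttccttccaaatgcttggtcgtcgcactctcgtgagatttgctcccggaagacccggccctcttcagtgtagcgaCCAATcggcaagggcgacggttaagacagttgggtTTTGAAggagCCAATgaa

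Inhibitors of the cell cycle moved in both directions, with 4 of 9 higher and 3 lower in the tumors. Cdkn2a, which encodes the inhibitors p16 and p19ARF, scored 0.19, 0.23 and 0.18 in the tumors and −1.22, −1.13 and −1.19 in the glands (difference 1.38 ± 0.12, adjusted p = 1.03e-08). The 3 libraries of each group lay within 0.1 units of each other in this gene. Cdkn1a, the p53 target p21, rose by 0.66 ± 0.07 (adjusted p = 3.63e-08), Cdkn2b by 0.53 ± 0.09 and Trp53, the gene of p53, by 0.35 ± 0.06. Cdkn1c, the inhibitor p57, fell by 1.09 ± 0.19 (adjusted p = 4.86e-05), the retinoblastoma gene Rb1 fell by 0.50 ± 0.07 (adjusted p = 2.42e-06), and Cdkn2c, the inhibitor p18, fell by 0.45 ± 0.09 (adjusted p = 0.000294).

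Luminal epithelial genes were expressed in tumors and glands, and most did not pass the test. Of 19 listed genes 6 rose and 1 fell, near the 28.8% of all genes that were higher. The count that rose was 3 without tumor 3 or without gland 2, 9 without gland 1 and 3 after housekeeping centring. The keratin gene Krt8 scored 1.85, 1.88 and 1.91 in the tumors and 1.66, 1.39 and 1.46 in the glands (difference 0.37 ± 0.08, adjusted p = 0.000488), and Esrp1, a splicing factor of epithelial cells, rose by 0.43 ± 0.12 (adjusted p = 0.00369). Epcam, an epithelial surface protein, had a difference of −0.05 (95% interval −0.32 to 0.22). Muc1, a mucin of the luminal surface, fell by 0.46 ± 0.11 (adjusted p = 0.00125). Libraries labelled as tumor and as gland both carried these epithelial markers.

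Of 13 hormone axis genes of the luminal epithelium 3 were lower and 0 higher, near the 18.7% of all genes that were lower. Esr1, the estrogen receptor, scored 0.62, 0.63 and 0.80 in the tumors and 1.15, 1.21 and 1.21 in the glands (difference −0.51 ± 0.12, adjusted p = 0.00142). Stat5a, which carries the prolactin signal, fell by 0.26 ± 0.05 (adjusted p = 0.000218). The difference of the progesterone receptor gene Pgr was −0.47 ± 0.26 and did not pass (adjusted p = 0.148). With limma fitted to the compared groups alone, Pgr was called lower (adjusted p = 0.00121). Prlr, the prolactin receptor, differed by −0.15 (95% interval −0.45 to 0.15) and Elf5, a transcription factor of milk-producing cells, by −0.01 (−0.18 to 0.15). Of 9 luminal progenitor genes, 4 rose, among them Wfdc18 (0.96 ± 0.17, adjusted p = 4.87e-05), a secreted protein of the WAP family, and Lcn2, the iron-binding lipocalin 2, which scored 2.61, 2.52 and 2.64 in the tumors and 2.19, 1.91 and 1.94 in the glands (difference 0.57 ± 0.13, adjusted p = 0.000628). In the same list Aldh1a3, a retinaldehyde dehydrogenase, fell by 0.78 ± 0.15 (adjusted p = 0.000143), and so did Cd14, a receptor for bacterial lipopolysaccharide (0.40 ± 0.10, adjusted p = 0.00216).

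Milk genes divided within the casein family, with 3 of 13 higher and 6 lower. The casein gene Csn1s1 scored 0.88, 0.81 and 0.90 in the tumors and 2.43, 2.14 and 2.18 in the glands (difference −1.39 ± 0.16, adjusted p = 2.39e-07). Csn2, beta-casein, scored 0.08, −0.20 and −0.15 in the tumors and 1.45, 1.20 and 1.19 in the glands (difference −1.37 ± 0.19, adjusted p = 2.16e-06). Csn3, kappa-casein, scored 2.24, 2.18 and 2.58 in the tumors and 2.52, 2.23 and 2.27 in the glands. The groups of Csn3 overlapped, with a difference of −0.01 (95% interval −0.28 to 0.27), whereas no tumor reached a gland in the other 2 genes. Csn1s2a fell by 1.53 ± 0.20 (adjusted p = 1.93e-06) and Btn1a1, a membrane protein of the milk fat globule, by 1.14 ± 0.13 (adjusted p = 2.78e-07). Wap, the whey acidic protein, scored −0.78, −1.05 and −0.74 in the tumors and −1.50, −1.27 and −1.32 in the glands, a rise of 0.50 ± 0.19 (adjusted p = 0.0274) at low scores, which did not pass without tumor 1 (adjusted p = 0.0808), without tumor 3 (adjusted p = 0.0895) or without gland 1 (adjusted p = 0.0954). Wap also did not pass after housekeeping centring (adjusted p = 0.0559) or with the glands of 3 and 6 w p.i. together as the control (adjusted p = 0.0526). Among 11 myoepithelial genes 0 rose and 3 fell, beside 18.7% of all genes that fell. The genes that fell were Myh11, smooth muscle myosin (−1.16 ± 0.22, adjusted p = 0.000109), Cnn1, the actin-binding calponin (−0.83 ± 0.25, adjusted p = 0.0085), and Oxtr, the oxytocin receptor that triggers milk ejection (−0.73 ± 0.18, adjusted p = 0.00129).

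Of 12 genes of the ErbB receptors and their ligands 5 rose and 1 fell, beside 28.8% of all genes that rose and 18.7% that fell. All 5 that rose encode ligands, while the ligand genes Ereg, Btc and Egf were not called. After housekeeping centring 5 genes of the list were higher and 4 lower, with a median difference of −0.03. Nrg1, a ligand of ERBB3 and ERBB4, scored 0.97, 1.20 and 0.75 in the tumors and −0.17, −0.54 and −0.48 in the glands (difference 1.37 ± 0.16, adjusted p = 3.76e-07). Hbegf, a ligand of EGFR, scored 0.39, 0.36 and 0.29 in the tumors and −0.50, −0.51 and −0.49 in the glands (difference 0.85 ± 0.12, adjusted p = 2.68e-06). The 2 groups lay apart in both ligands. Areg, amphiregulin, rose by 0.81 ± 0.28 (adjusted p = 0.0185), a call that was lost without tumor 2 (adjusted p = 0.0842) or without gland 2 (adjusted p = 0.0867). With the glands of 3 and 6 w p.i. together as the control, its difference was 0.325 and was not called (adjusted p = 0.273). Erbb4 fell by 0.47 ± 0.13 (adjusted p = 0.00484) and was not called without tumor 2 (adjusted p = 0.0611).

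Adipocyte genes were lower in every tumor, 19 of 19, with a median difference of −1.61. The mean score of the list was 0.17, 0.37 and 1.04 in the tumors and 1.85, 2.20 and 2.05 in the glands, and tumor 3 lay nearest to the glands. Adipoq, the hormone adiponectin, scored −0.04, 0.10 and 1.21 in the tumors and 2.14, 2.52 and 2.37 in the glands (difference −1.92 ± 0.37, adjusted p = 0.000135). Retn, the hormone resistin, scored −0.74, −0.51 and 0.82 in the tumors and 1.73, 2.12 and 1.94 in the glands (difference −2.08 ± 0.38, adjusted p = 8.03e-05). Plin1, the coat protein of lipid droplets, fell by 1.84 ± 0.35 (adjusted p = 0.00012), Fabp4, the fatty acid carrier of fat cells, by 1.73 ± 0.31 (adjusted p = 6.83e-05), and Pparg, the transcription factor of fat cell formation, by 1.10 ± 0.20 (adjusted p = 8.6e-05). Without tumor 3 all 19 genes were again lower, with a median of −1.89, and without tumor 1 all 19 with a median of −1.40.

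Genes that make and store lipid followed, 13 of 15 lower and 1 higher, with a median difference of −1.02. Scd1, the desaturase of fatty acids, scored 2.23, 2.06 and 2.68 in the tumors and 3.65, 4.04 and 3.87 in the glands (difference −1.53 ± 0.27, adjusted p = 5.79e-05). Fasn, fatty acid synthase, scored 2.19, 2.07 and 2.25 in the tumors and 3.19, 3.62 and 3.41 in the glands (difference −1.24 ± 0.30, adjusted p = 0.00131). Pck1, a key enzyme of glycerol and glucose synthesis, scored −0.47, −0.38 and 0.81 in the tumors and 1.82, 2.27 and 2.04 in the glands (difference −2.06 ± 0.43, adjusted p = 0.000338), and Ces1d, a carboxylesterase that acts on lipids, fell by 2.12 ± 0.41 (adjusted p = 0.000157). Srebf1, a transcription factor of lipid synthesis, was the gene that rose (0.27 ± 0.08, adjusted p = 0.00877), and it was not called without tumor 1 (adjusted p = 0.0518), after median and MAD rescaling (adjusted p = 0.0806) or after housekeeping centring (adjusted p = 0.149). Of the adipogenesis hallmark 102 of 193 genes fell and 14 rose.

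**Figure D2:**
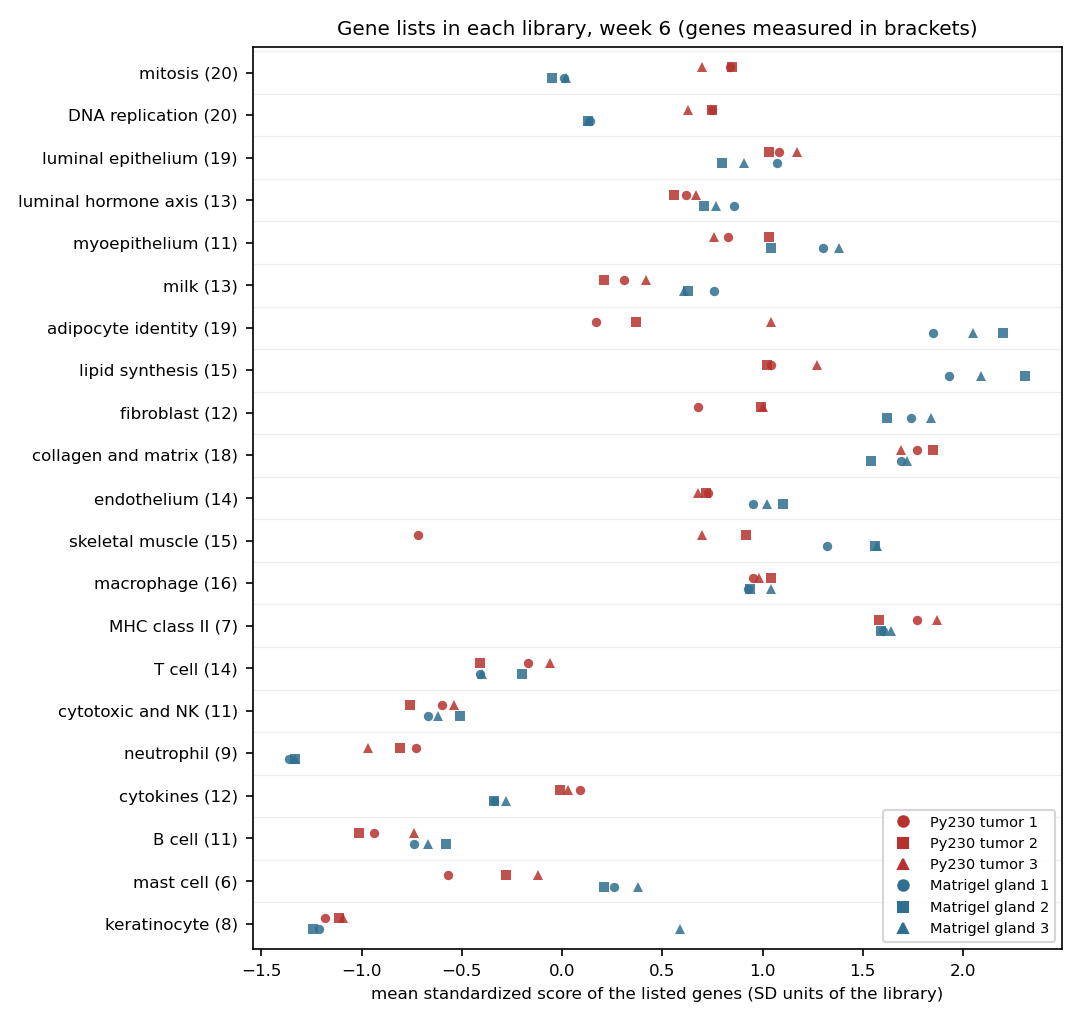
Mean standardized score (x axis, SD units) of the measured genes of 21 lists in each of the 3 Py230 tumors (red) and 3 C57BL/6 Matrigel glands (blue) at 6 w p.i., without error bars. Tumors lie apart from glands in mitosis, DNA replication, luminal hormone axis, milk, adipocyte, lipid synthesis, fibroblast and endothelial genes. They also lie apart in skeletal muscle, neutrophil, cytokine and mast cell genes, and by very little in myoepithelial genes. Tumor 1 lies far to the left in skeletal muscle genes, and gland 3 far to the right in keratinocyte genes.

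Fibroblast genes fell in 11 of 12 cases, with a median difference of −0.96. Dcn, the small matrix proteoglycan decorin, scored 1.20, 1.58 and 1.71 in the tumors and 2.74, 2.56 and 2.73 in the glands (difference −1.18 ± 0.17, adjusted p = 5.02e-06). Pdgfra, the receptor that marks fibroblasts, scored 1.14, 1.17 and 1.05 in the tumors and 1.80, 1.72 and 1.78 in the glands (difference −0.64 ± 0.10, adjusted p = 1.7e-05). Collagen genes gave no call toward lower values on the deposited scores. Of 18 genes of collagen and matrix 3 rose and 0 fell, with a median difference of −0.02, and Col1a1, the main chain of type I collagen, scored 2.40, 2.51 and 2.29 in the tumors and 2.39, 2.26 and 2.52 in the glands (difference 0.01, 95% interval −0.29 to 0.31). At an unadjusted p under 0.05 the same list held 0 genes that were lower. After median and MAD rescaling or housekeeping centring, 2 genes of the list were higher and 1 lower, with a median difference of −0.12. Beside Col11a1 the genes that rose were Col12a1, a collagen that links fibrils (0.56 ± 0.16, adjusted p = 0.00642), and Spp1, the secreted phosphoprotein osteopontin (0.43 ± 0.18, adjusted p = 0.0468), whose call was lost without tumor 1 (adjusted p = 0.184), without tumor 3 (adjusted p = 0.0864), without gland 2 (adjusted p = 0.2) or without gland 3 (adjusted p = 0.11). The call of Spp1 was also lost after median and MAD rescaling (adjusted p = 0.117) and housekeeping centring (adjusted p = 0.133). With the glands of 3 and 6 w p.i. together as the control it was lost too (adjusted p = 0.174).

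Among regulators of the epithelial-mesenchymal transition 2 of 9 rose and 4 fell. Cdh2, N-cadherin, scored 0.51, 0.55 and 0.29 in the tumors and −0.27, −0.21 and −0.18 in the glands (difference 0.67 ± 0.08, adjusted p = 5.48e-07), and the transcription factor Snai1 rose by 0.52 ± 0.07 (adjusted p = 7.54e-07). Zeb2, another transcription factor of this group that is also expressed in stroma, fell by 0.59 ± 0.09 (adjusted p = 6.3e-06). Vim, the filament of mesenchymal cells, had a difference of −0.09 (95% interval −0.25 to 0.06). It was called lower after median and MAD rescaling (adjusted p = 0.0354) and after housekeeping centring (adjusted p = 0.0241). After quantile normalization its difference was 0.05 and was not called. Of 16 proteases and their inhibitors 6 fell and 1 rose, and the count that rose was 0 without any one of the 6 libraries. Among those that fell were Timp4, an inhibitor of metalloproteinases known from fat (−1.40 ± 0.27, adjusted p = 0.000173), and Mmp9, a gelatinase (−0.72 ± 0.21, adjusted p = 0.00684).

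Vessel genes were lower by smaller amounts. Of 14 endothelial genes 10 fell and 0 rose, with a median difference of −0.28. Pecam1, the endothelial adhesion molecule CD31, scored 1.20, 1.19 and 1.19 in the tumors and 1.42, 1.56 and 1.49 in the glands (difference −0.29 ± 0.05, adjusted p = 1.42e-05). Of 8 ligands of the VEGF and angiopoietin families 6 fell and 1 rose. Pgf, placental growth factor, was the ligand that rose, with scores of 0.73, 0.97 and 0.50 in the tumors and −0.05, −0.27 and −0.28 in the glands (difference 0.93 ± 0.11, adjusted p = 4.38e-07). Vegfa fell by 0.29 ± 0.10 (adjusted p = 0.0203), a call lost without tumor 3 (adjusted p = 0.121) or without gland 2 (adjusted p = 0.106), and Angptl4, an inhibitor of lipoprotein lipase, by 1.31 ± 0.22 (adjusted p = 3.71e-05).

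Of 15 hypoxia and glycolysis genes 4 rose and 2 fell, which was no more than the 28.8% and 18.7% of all genes. The count that rose was 2 without tumor 1, without tumor 2, without gland 3 or after housekeeping centring. Car9, the carbonic anhydrase used as a marker of hypoxia, scored 0.45, 0.70 and 0.54 in the tumors and −0.85, −0.97 and −0.76 in the glands (difference 1.43 ± 0.16, adjusted p = 1.43e-07). Egln3, an oxygen-dependent prolyl hydroxylase, rose by 1.10 ± 0.18 (adjusted p = 3.29e-05), while Bnip3, a mitochondrial protein of the same response, fell by 0.77 ± 0.17 (adjusted p = 0.00045). In the IGF axis 3 of 9 genes rose and 4 fell. Beside Igfbp2, the binding protein gene Igfbp3 rose by 1.03 ± 0.16 (adjusted p = 1.07e-05), and the growth factor gene Igf1 itself scored 0.59, 0.63 and 0.90 in the tumors and 1.58, 1.81 and 1.75 in the glands (difference −1.01 ± 0.15, adjusted p = 7.68e-06).

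Some inflammatory mediators rose, among them Il1b, Il6, Il33 and Cxcl1. Of 12 cytokine genes 5 rose and 0 fell, beside 28.8% of all genes that rose and 18.7% that fell. The count that fell was 1 after median and MAD rescaling, cyclic loess, quantile normalization or housekeeping centring. It was also 1 without tumor 3 or without gland 1. The count that rose was 4 after housekeeping centring. Il1b, interleukin-1β, scored 1.00, 0.80 and 0.91 in the tumors and −0.69, −0.74 and −0.72 in the glands (difference 1.62 ± 0.25, adjusted p = 1.37e-05). Il6 scored −0.78, −0.90 and −0.84 in the tumors and −1.53, −1.45 and −1.48 in the glands (difference 0.65 ± 0.14, adjusted p = 0.000369). All 3 tumors lay above all glands in both genes, and also in Il33, an alarmin of epithelial and stromal cells (0.66 ± 0.20, adjusted p = 0.00832). Of 16 chemokines 5 rose and 1 fell, near the 28.8% of all genes that were higher, and the count that rose was 3 without tumor 3 or without gland 1. The called genes included Cxcl1, which attracts neutrophils (0.93 ± 0.17, adjusted p = 6.6e-05), and Ccl2, which attracts monocytes (0.66 ± 0.23, adjusted p = 0.0212). The call of Ccl2 was lost without tumor 2 (adjusted p = 0.0563), without tumor 3 (adjusted p = 0.0649) or without gland 1 (adjusted p = 0.0556). Of 13 interferon response genes 5 rose, beside 28.8% of all genes, and this count was 3 without tumor 3. Among them was Cxcl10 (0.81 ± 0.24, adjusted p = 0.00682), a chemokine for T cells.

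Of 9 neutrophil genes 4 rose and 0 fell, beside 28.8% of all genes that rose and 18.7% that fell. Ly6g, Csf3r, Retnlg, Mmp8 and Ngp were not called. The mean score of the list was low, with −0.73, −0.81 and −0.97 in the tumors and −1.36, −1.33 and −1.33 in the glands. S100a8, a calcium-binding protein of neutrophils and monocytes, scored 0.03, −0.10 and −0.31 in the tumors and −1.24, −1.15 and −1.14 in the glands (difference 1.05 ± 0.16, adjusted p = 7.19e-06). Its partner S100a9 rose by 0.85 ± 0.18 (adjusted p = 0.00045) and the receptor gene Cxcr2 by 0.94 ± 0.20 (adjusted p = 0.000434). Limma called 0 of 16 macrophage genes, of which 3 had an unadjusted p under 0.05, and the scores of Adgre1, the macrophage marker F4/80, were 1.19, 1.19 and 1.27 in the tumors and 1.20, 1.21 and 1.28 in the glands (difference −0.02, 95% interval −0.30 to 0.27). It also called 0 of 7 MHC class II genes (0 at an unadjusted p under 0.05) and 0 of 11 cytotoxic and NK cell genes (1 at an unadjusted p under 0.05). After housekeeping centring 4 macrophage genes and 1 cytotoxic and NK cell gene were lower. Median and MAD rescaling gave 1 lower macrophage gene, and quantile normalization 1 higher MHC class II gene. Of 14 T cell genes 3 rose, which was no more than the 28.8% of all genes that were higher. The genes that rose were Pdcd1, the checkpoint receptor PD-1 (0.51 ± 0.16, adjusted p = 0.0102), Ctla4, another checkpoint receptor (0.51 ± 0.20, adjusted p = 0.039), and Foxp3, the transcription factor of regulatory T cells (0.25 ± 0.10, adjusted p = 0.0449). Higher T cell genes numbered 0 without tumor 3 and 1 without tumor 1 or without gland 3. The call of Foxp3 was also lost after median and MAD rescaling (adjusted p = 0.0561), cyclic loess (adjusted p = 0.0871) and housekeeping centring (adjusted p = 0.174), and that of Ctla4 after housekeeping centring (adjusted p = 0.0732), where the list held 1 gene higher and 1 lower. The T cell receptor chain gene Cd3e had a difference of 0.08 (95% interval −0.26 to 0.43). Of 6 mast cell genes 5 fell, among them Mcpt4, a mast cell protease, with scores of −0.36, 0.02 and 0.28 in the tumors and 0.91, 0.77 and 1.00 in the glands (difference −0.91 ± 0.15, adjusted p = 2.73e-05).

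**Figure D3:**
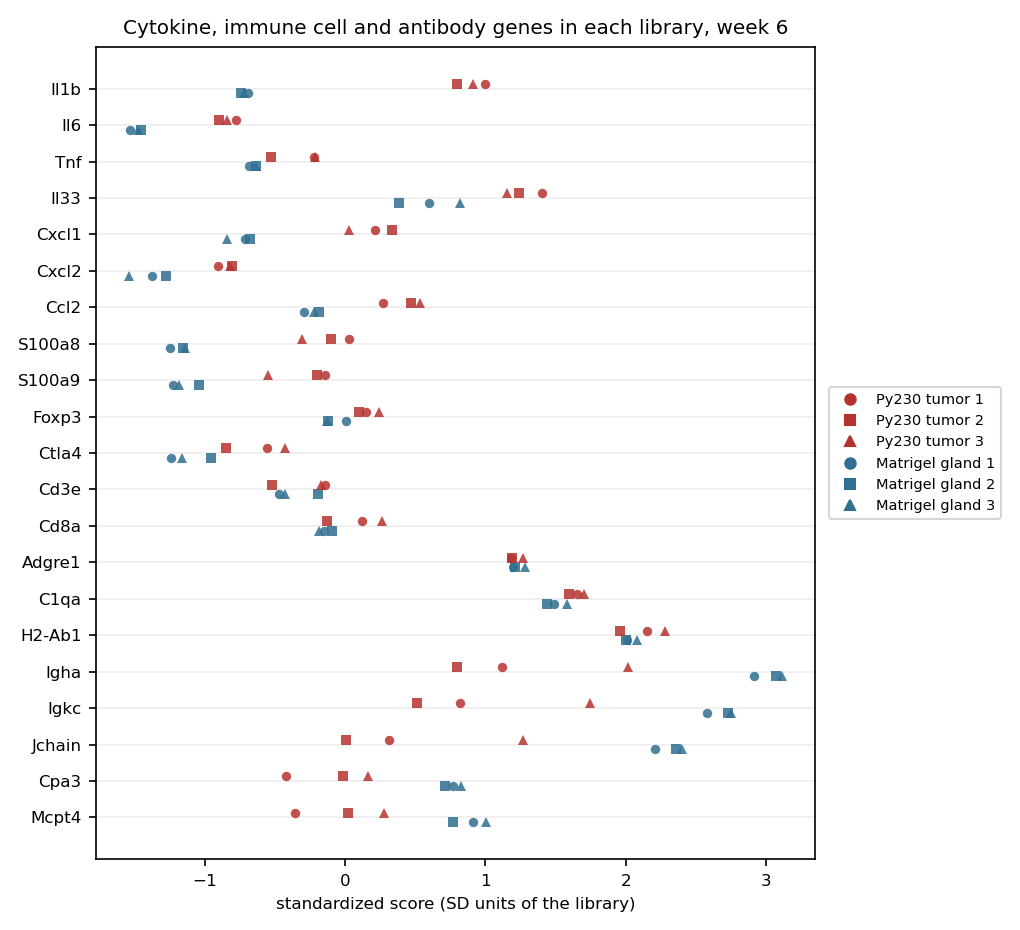
Standardized score (x axis, SD units) of 21 genes of cytokines, chemokines, immune cells and antibodies, with 1 point for each of 3 Py230 tumors (red) and 3 C57BL/6 Matrigel glands (blue) at 6 w p.i. and no error bars. Tumor points lie to the right in Il1b, Cxcl1 and S100a8, mix with gland points in Cd3e and Adgre1, and lie to the left in Igha, Igkc, Jchain, Cpa3 and Mcpt4.

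Antibody genes held 9 of the 12 lowest differences. Variable (V) genes encode the part of an antibody that binds its target, and each B cell or plasma cell clone uses a few of them. Of 226 measured V genes and V pseudogenes 136 fell and 0 rose, with a median difference of −0.78, beside 18.7% of all genes that fell. Their mean score was −1.34, −1.40 and −1.10 in the tumors and −0.55, −0.41 and −0.42 in the glands. The 3 glands shared their pattern of V genes: over the 226 genes, as deviations from the mean of all 36 libraries, they correlated by 0.95 with each other and by at most 0.25 with any library of another group, while the tumors correlated by 0.29 to 0.94 with each other. The C57BL/6 glands of 3 w p.i. likewise correlated by 0.88 to 0.92 with each other and by at most 0.31 with other groups. The 3 glands may therefore not count as 3 separate repertoires, and the p-values of V genes take them as 3. Why they are alike was not tested. With the glands of 3 and 6 w p.i. together as the control, chosen after seeing the data, 151 V genes fell and 0 rose, with a median of −0.76. Ighv5-12, a heavy chain V gene on chromosome 12, scored −1.42, −1.39 and −1.41 in the tumors and 1.03, 1.25 and 1.17 in the glands (difference −2.56 ± 0.22, adjusted p = 6.03e-09). Ighv1-26 scored −1.01, −1.12 and −0.30 in the tumors and 1.52, 1.70 and 1.73 in the glands (difference −2.46 ± 0.31, adjusted p = 9.7e-07). The light chain genes among the lowest, all on chromosome 6, were Igkv8-24 (−2.27 ± 0.41), Igkv14-100 (−2.24 ± 0.33), Igkv4-79 (−2.15 ± 0.26), Igkv4-53 (−2.15 ± 0.35), Igkv15-103 (−2.09 ± 0.39) and Igkv6-32 (−2.06 ± 0.30), and Ighv7-1 was a further heavy chain gene (−2.31 ± 0.41). V genes are near copies of each other, so reads can be counted under a neighbour, and the value of a single V gene is uncertain. Against the glands of both times the difference of Ighv7-1 was −1.30 and that of Igkv15-103 −1.35.

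The constant genes, which are few and distinct, were lower in 5 of 11 cases and higher in 0. Igha, the constant region of IgA, scored 1.12, 0.79 and 2.02 in the tumors and 2.91, 3.07 and 3.11 in the glands (difference −1.72 ± 0.37, adjusted p = 0.000463). Igkc, the constant region of kappa light chains, scored 0.82, 0.51 and 1.75 in the tumors and 2.58, 2.73 and 2.75 in the glands (difference −1.66 ± 0.37, adjusted p = 0.00068). Jchain, which joins IgA and IgM into polymers, scored 0.31, 0.00 and 1.26 in the tumors and 2.21, 2.36 and 2.40 in the glands (difference −1.79 ± 0.37, adjusted p = 0.000313). In all 3 genes tumor 3 lay nearest to the glands. Tnfrsf17, the plasma cell receptor BCMA, fell by 0.64 ± 0.09 (adjusted p = 4.59e-06) and Mzb1, a protein of antibody-secreting cells, by 0.59 ± 0.15 (adjusted p = 0.00197). Other genes used by plasma cells did not fall. Sdc1, the surface proteoglycan CD138 that epithelial cells also carry, rose by 0.63 ± 0.12 (adjusted p = 9.83e-05), and Prdm1, a transcription factor of plasma cells and other cell types, rose by 0.28 ± 0.10 (adjusted p = 0.0162), a call lost without tumor 1 (adjusted p = 0.0653), without gland 1 (adjusted p = 0.0618) or after housekeeping centring (adjusted p = 0.0677). Xbp1, a transcription factor of secretory cells, scored 1.68, 1.54 and 1.87 in the tumors and 1.64, 1.71 and 1.69 in the glands, and the groups overlapped. Of the 11 listed B cell genes, Pax5, a B cell transcription factor, rose (0.74 ± 0.13, adjusted p = 3.9e-05), and 4 fell, of which Jchain and Mzb1 mark plasma cells.

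Other tissues of the dissected piece were not equal between samples. Limma called 0 of 15 skeletal muscle genes, with 0 at an unadjusted p under 0.05. All 15 lay apart between the groups, as did 64.1% of all genes. The median difference of the muscle genes was −1.19 with tumor 1 and −0.72 without it. The muscle actin gene Acta1 scored −0.09, 2.02 and 1.73 in the tumors and 2.31, 2.60 and 2.55 in the glands. Of 6 Schwann cell genes 4 fell and 1 rose, and the count that rose was 0 without gland 2 or without gland 3. Of 8 keratinocyte genes 1 fell and 0 rose (2 fell without gland 1), and their median difference was −0.54 with gland 3 and 0.13 without it. The part of muscle, nerve, skin and fat in the other differences was not tested.

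At earlier times the same comparison gave fewer calls. At 1 w p.i., 2 genes (0.00924% of all genes) were called between Py230 tumors and C57BL/6 Matrigel glands, and at 3 w p.i. 4267 (19.7%), of which 2773 were higher (12.8%) and 1494 lower (6.9%) in the tumors. The median difference of the mitosis genes was 0.00 at 1 w, 0.63 at 3 w and 0.82 at 6 w p.i., and that of DNA replication genes 0.03, 0.21 and 0.56. Adipocyte genes went from −0.13 to −0.63 and −1.61. The change itself was tested as a difference of differences, which uses the 6 libraries of 6 w p.i. again together with 6 libraries of the earlier time. Between 1 and 6 w p.i. it was called in 5618 genes (25.9%), in 3512 of them toward higher (16.2%) and in 2106 toward lower values in the tumors (9.73%). Of the mitosis genes 14 of 20, of the DNA replication genes 18 of 20, had such a change toward higher values, and of the adipocyte genes 17 of 19, of the fibroblast genes 9 of 12 and of the milk genes 6 of 13 had one toward lower values. Nptx1 changed by 2.54 (adjusted p = 3.85e-06), Cdkn2a by 1.23 (adjusted p = 4.34e-05) and Car9 by 1.46 (adjusted p = 7.34e-05).

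**Figure D4:**
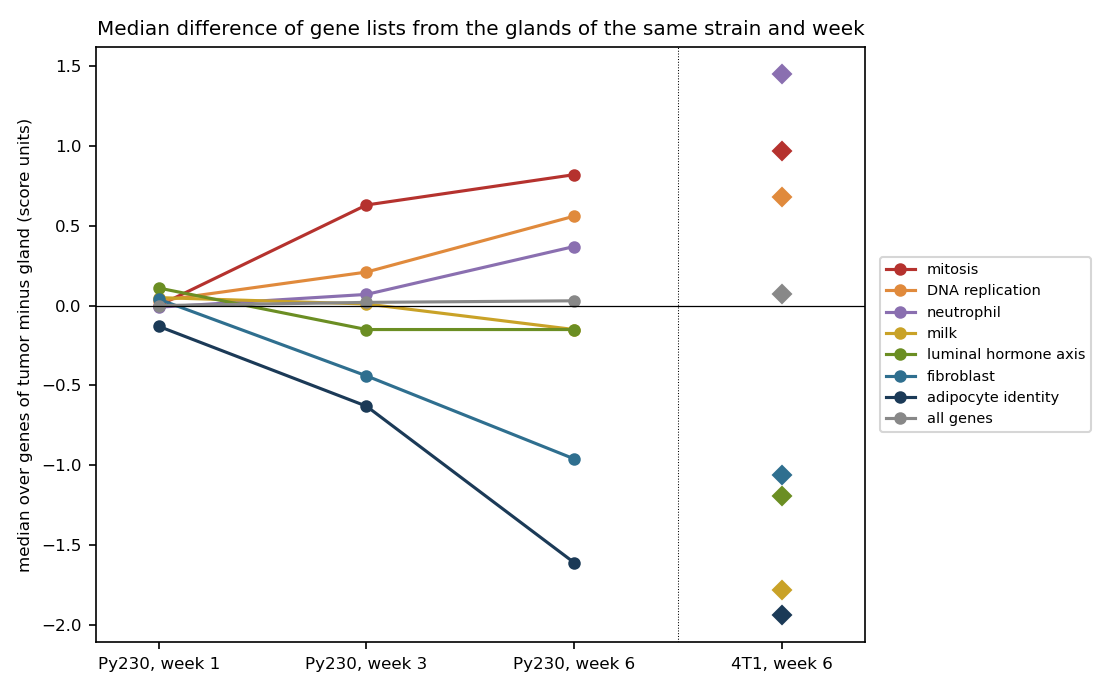
Median difference (y axis, score units) over the genes of 7 lists and over all genes, for Py230 tumors minus C57BL/6 Matrigel glands at each of the 3 times (lines, 1 to 6 w p.i.) and for 4T1 tumors minus BALB/c Matrigel glands at 6 w p.i. (diamonds), with 3 tumors and 3 glands behind each value and no error bars. Mitosis genes go from 0.00 to 0.82 in Py230 tumors and stand at 0.97 in 4T1 tumors, and adipocyte genes go from −0.13 to −1.61 and stand at −1.94.

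Between 3 and 6 w p.i. the change was called in 986 genes (4.55%), 647 toward higher (2.99%) and 339 toward lower values (1.57%). This count rested on single libraries. It was 2792 without Py230 tumor 1 of 3 w p.i., 579 and 448 without tumors 2 and 3 of that time, and 512 and 507 without its glands 1 and 2. Without tumors 1 and 2 of 6 w p.i. it was 480 and 332, and without glands 2 and 3 of 6 w p.i. 456 and 576. None of the 20 mitosis genes and none of the 19 adipocyte genes was called by limma, with 0 and 11 at an unadjusted p under 0.05. Milk genes were called in 6 of 13, all toward lower values, among them Csn1s1 (−0.89, adjusted p = 0.0213). Scd1 stood 0.08 above the glands at 3 w p.i. and 1.53 below them at 6 w p.i. (change −1.61, adjusted p = 0.0153). Nrg1 went from 0.21 to 1.37 (change 1.16, adjusted p = 0.00433) and Cdh2 from −0.25 to 0.67 (change 0.92, adjusted p = 5.91e-05). The largest changes toward higher values by the naming rule were those of Nptx1 (1.61), Arc (1.47) and Igfbp2 (1.29), and the largest toward lower values were in V genes. Single libraries ended the calls of Csn1s1 (adjusted p up to 0.0825), Scd1 (up to 0.0617) and Igfbp2 (up to 0.137), but not those of Nptx1, Arc, Nrg1 and Cdh2.

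4T1 is a mammary tumor line of BALB/c mice, and 4T1 tumors, set against their own BALB/c Matrigel glands at 6 w p.i., differed in 13015 genes (60.1%), with 8360 higher (38.6%) and 4655 lower (21.5%). The difference between both tumor differences was called in 5517 genes (25.5%). In 2407 of these the value was higher for Py230 (11.1%) and in 3110 it was lower (14.4%). Cell line and mouse strain cannot be told apart in this comparison. Proliferation genes rose in both: limma called 0 of 20 mitosis genes between the lines, with 0 at an unadjusted p under 0.05, beside median differences of 0.82 for Py230 and 0.97 for 4T1. Luminal genes differed between the lines. Milk genes had a higher value for Py230 in 10 of 13 cases, hormone axis genes in 8 of 13 and luminal progenitor genes in 7 of 9. Csn3, with −0.01 in Py230 tumors, stood at −2.58 in 4T1 tumors (adjusted p of the difference = 2.51e-10), Prlr at −2.46 beside −0.15 (adjusted p = 6.28e-09) and Elf5 at −1.95 beside −0.01 (adjusted p = 7.97e-12). Col11a1 and Cdkn2a, both high in Py230 tumors, stood at −0.69 and −0.17 in 4T1 tumors. In the other direction, 6 of 9 neutrophil genes had a lower value for Py230. S100a8 stood at 2.12 in 4T1 tumors beside 1.05 in Py230 tumors (adjusted p = 0.000679), and Csf3, the neutrophil growth factor G-CSF, at 1.38 beside 0.13 (adjusted p = 8.65e-05). Hmga2, an oncofetal chromatin protein, stood at 3.21 in 4T1 tumors and at 0.02 in Py230 tumors (95% interval −0.45 to 0.49, adjusted p of the difference between the lines = 4.01e-08).

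Calls were not even over the chromosomes. Over the 12111 genes with a mean score above 0 in the 6 libraries, 34.3% were higher and 19% lower in the Py230 tumors, and the median difference was 0.043. On chromosome 18, 60.9% of 335 such genes were higher and 6.87% lower, with a median of 0.167. The median of chromosome 18 above the gland mean was 0.177, 0.186 and 0.144 in the 3 tumors and between −0.006 and 0.006 in the glands, so each tumor showed it. On chromosome 11 from 110 Mb to its end, where Nptx1 and Birc5 lie, 65.6% of 154 genes were higher, with a median of 0.299, against a median of 0.072 over the 826 genes below 110 Mb. On chromosome 4 between 30 and 130 Mb, 47.7% of 449 genes were higher, with a median of 0.124. This stretch was not even. Its 10-Mb window from 120 Mb had a median of −0.017, with 19.5% of 87 genes higher and 26.4% lower. The window from 60 Mb had a median of 0.033. In windows of 10 Mb with at least 20 genes, 221 in all, medians ran from −0.08 to 0.322, and the 2 highest were the last windows of chromosome 11. The median of chromosome 18 was 0.017 at 1 w and 0.117 at 3 w p.i., and −0.002 in 4T1 tumors at 6 w p.i. The limits of these regions were set after the values were seen, no test was made, and genes of a region share their libraries and are not replicates.

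**Figure D5:**
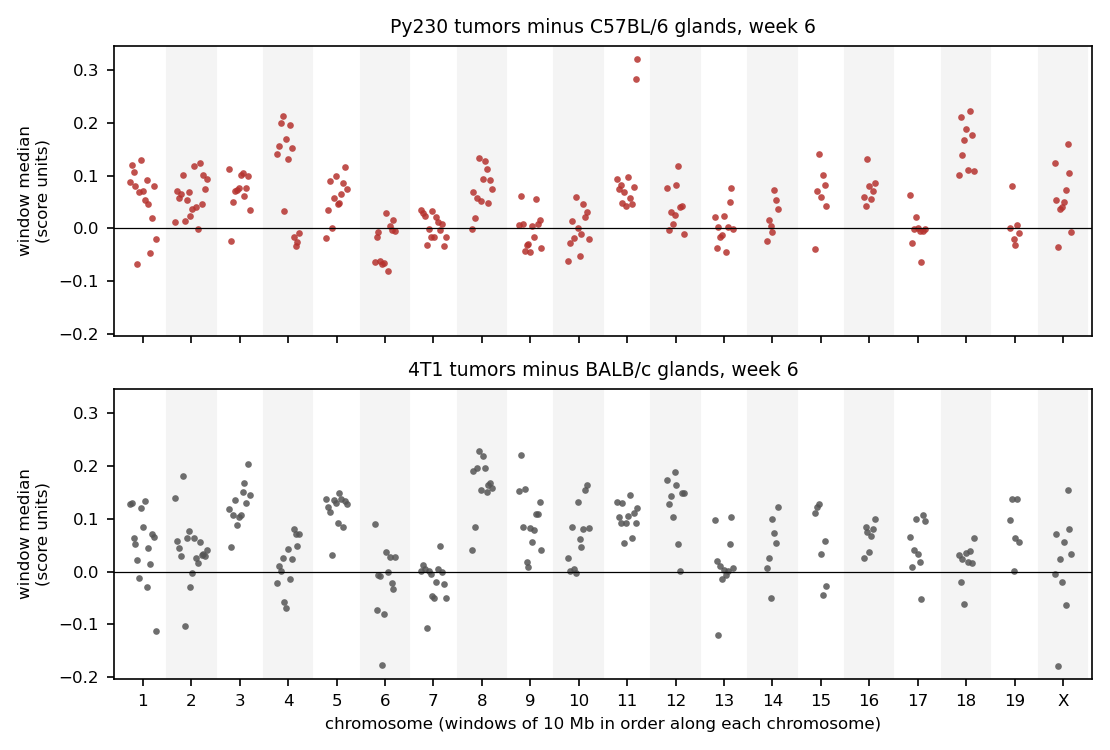
Median difference (y axis, score units) of the genes in windows of 10 Mb, in order along chromosomes 1 to 19 and X (x axis), for Py230 tumors minus C57BL/6 Matrigel glands (upper panel) and 4T1 tumors minus BALB/c Matrigel glands (lower panel) at 6 w p.i., with no error bars. In the upper panel the windows of chromosome 18 and of the end of chromosome 11 lie above those of most other chromosomes, and in the lower panel the median over chromosome 18 is −0.002.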

How the data were processed

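Total RNA of flash-frozen tumors and glands was sequenced by the authors (stranded, paired-end), aligned to mm10 with STAR, counted with summariseOverlaps and processed with DESeq2. Versions and the annotation are not given in the sources used here. The deposited table holds a standardized score per gene and library (mean 0, SD 1 over 21650 genes). The transformation behind the score is not stated, counts could not be recovered, and depth is unknown, so that no counting interval is given and differences are in score units, not folds. Deposited fold changes and p-values of the authors' comparisons were not used.

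A linear model with 12 group means over the 36 libraries was fitted with limma 3.58.1 in R 4.3.3 (empirical Bayes with trend and robust settings, Benjamini-Hochberg adjustment over 21650 genes, threshold 0.05), after it was tested on simulated data. An edgeR test was not possible without counts. An exact permutation test of 3 against 3 samples cannot go below 0.1 and was not used. Intervals are 95% intervals of the model. Differences of differences came from the same fit. Symbols came from the deposited tables for 16266 genes and from GENCODE M21 for 5384, and promoters from RefSeq.

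The text names key genes of 43 gene lists (478 of 492 listed genes were measured), and the 12 highest and 12 lowest called genes whose groups did not overlap and whose higher group averaged at least 0.5, with the 3 highest and 3 lowest for each difference of differences. Other genes named were chosen after their values were seen. Members and lists were chosen with earlier results of these data known. Alternatives were the compared groups alone, no trend or robust setting, rescaling by median and MAD, cyclic loess, quantile normalization, centring on housekeeping genes, a mean score above 0, a replicate block and leaving out each library, and, chosen after seeing the data, glands of 3 and 6 w p.i. as controls.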

Additional observations from a re-analysis of the deposited data

Results flagged for a closer look

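Results are given here where the tumor difference itself differed between times or cell lines, by limma's test of a difference of differences at an adjusted p under 0.05. No explanation was tested. From 1 to 6 w p.i., 3512 genes changed toward higher and 2106 toward lower values in Py230 tumors relative to the glands. The largest changes by the naming rule were those of Nptx1 (2.54), Clca1 (1.87), Igfbp2 (1.84), Ighv1-26 (−2.89), Ighv1-84 (−2.67) and Igkv6-32 (−2.52), and among the genes described above Car9 changed by 1.46, Cdkn2a by 1.23 and Nrg1 by 1.23. In the lists, 14 mitosis and 18 DNA replication genes changed toward higher values, and 17 adipocyte, 9 fibroblast and 6 milk genes toward lower values.

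From 3 to 6 w p.i., 647 genes changed toward higher and 339 toward lower values. The largest were Nptx1 (1.61), Arc (1.47), Igfbp2 (1.29), Igkv8-27 (−3.44), Ighv7-1 (−3.23) and Igkv15-103 (−2.46). Nrg1 changed by 1.16, Cdh2 by 0.92, Scd1 by −1.61 and Csn1s1 by −0.89, and 6 milk genes changed toward lower values.

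Between the cell lines at 6 w p.i., 2407 genes had a higher and 3110 a lower value for Py230 than for 4T1. Col9a1 (2.77), Wfdc18 (2.69) and Igfbp2 (2.59) were the highest by the naming rule. Hhip, an inhibitor of hedgehog signalling (−2.63), Msln, the surface protein mesothelin (−2.47), and Gzmd, a granzyme (−2.36), were the lowest by that rule, which asks that the values do not overlap between tumors and glands at 6 w p.i. Hmga2, named from its list, had a lower value (−3.19). Csn3 (2.58), Prlr (2.31), Elf5 (1.93), Col11a1 (2.29) and Cdkn2a (1.55) were higher for Py230, and Csf3 (−1.25) and S100a8 (−1.06) were lower. In the lists, 10 milk, 8 hormone axis and 7 luminal progenitor genes were higher and 6 neutrophil genes lower for Py230. Cell line and strain cannot be told apart here.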

How the results depend on the processing

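Scaling moved the direction of the calls. Centring on housekeeping genes gave 3151 genes higher and 7038 lower at 6 w p.i., 1638 toward higher and 3504 toward lower values from 1 to 6 w p.i., 291 and 802 from 3 to 6 w p.i., and 4009 higher and 1371 lower for Py230 than for 4T1. Keeping genes with a mean score above 0 tests fewer genes, and gave 6596 calls at 6 w p.i. with 2357 lower, 3710 changes from 1 to 6 w p.i. (2308 toward higher, 1402 toward lower values) and 2067 genes lower for Py230 than for 4T1. The cause was not tested for the centring.

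Leaving out single libraries gave 8655 to 9648 calls at 6 w p.i. (5187 to 5973 higher, 3458 to 3675 lower), 4091 to 5410 from 1 to 6 w p.i. (2537 to 3452 and 1554 to 1958), 332 to 2792 from 3 to 6 w p.i. (239 to 1673 and 93 to 1119) and 4622 to 5358 between Py230 and 4T1 (2071 to 2305 and 2481 to 3147). The 2792 came without Py230 tumor 1 of 3 w p.i. and the 332 without Py230 tumor 2 of 6 w p.i. With the replicate number as a block 10567 genes were called, beside 10296 without it. Deviations of same-numbered tumors and glands correlated by 0.224, −0.106 and 0.048. The labels do not say whether the numbers pair the samples, and these few values cannot settle it. With glands of 3 and 6 w p.i. as controls, an alternative chosen after seeing the data, 10988 genes were called.

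Genes not called in the comparison changed sign as follows: Adgre1 (0.00399 with glands of 3 and 6 w p.i., −0.0435 to 0.00886 over single libraries left out), Cd3e (−0.019 after housekeeping centring), Col1a1 (−0.111 after median and MAD rescaling, −0.0937 after housekeeping centring, −0.0442 with glands of 3 and 6 w p.i., −0.054 to 0.0733 over single libraries left out), Csn3 (0.062 after cyclic loess, 0.205 after quantile normalization, −0.13 to 0.0846 over single libraries left out), Elf5 (−0.081 to 0.052 over single libraries left out), Epcam (0.000671 after quantile normalization, −0.106 to 0.0225 over single libraries left out), Hmga2 (−0.0164 after cyclic loess, −0.0668 after quantile normalization, −0.0859 after housekeeping centring, −0.0549 to 0.117 over single libraries left out), Vim (0.0504 after quantile normalization), Xbp1 (−0.0715 after median and MAD rescaling, −0.089 after housekeeping centring, −0.0309 with glands of 3 and 6 w p.i., −0.0746 to 0.0945 over single libraries left out). No called gene named in the text changed sign under these alternatives, and 40 of the 1671 alternative values of 113 such genes missed the threshold. Of the 234 alternative values of 16 named genes that were not called, 7 passed the threshold, in Pgr, Vim, Hhip and Gzmd.

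Scores carry no depth, so that low values cannot be told from counting noise, and which part of a difference is due to cell composition was not tested.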
